A study of Homo sapiens with 4 samples.

Results

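LAMP5, 1 of 20033 protein-coding genes of the RefSeq table, lies on the plus strand of chromosome 20 (GRCh38, 9514590 to 9530524) and its gene record is 15.9 kb long. Every H3K27ac peak within that record and 100 kb either side (9414590 to 9630524) was taken, which gave 41 of 86207 peaks in cells treated with SNDX-50469 plus OTX015 (the combination) and 26 of 55852 peaks in cells treated with OTX015 alone. The cells were MOLM13, an established acute myeloid leukemia line that carries an MLL-AF9 fusion. The combination was 500 nM of the Menin inhibitor SNDX-50469 with 500 nM of OTX015, and the other arm was 500 nM of OTX015, an inhibitor of the BET bromodomain proteins, each for 16 hours. Both arms therefore received OTX015, and cells given vehicle or SNDX-50469 alone were not analysed here. Each treatment had 1 H3K27ac ChIP library, so all differences below are between 2 libraries of 1 cell line, with no replicate spread and no test. The sample titles call the mark H2K27Ac, and the name on the antibody, H3K27Ac, was used instead.

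Acetylation of lysine 27 of histone H3 marks active promoters and enhancers, and long clusters of it mark the strongest enhancers of a cell. In leukemias with an MLL rearrangement, the fusion protein is held at its target genes by Menin, and BET proteins bind acetylated histones there. LAMP5 (also called BAD-LAMP) encodes a lysosome-associated membrane protein known from subsets of neurons and from human plasmacytoid dendritic cells, where it takes part in the endosomal traffic of Toll-like receptor 9, and it is known as a target of MLL fusions in leukemia. LAMP5-AS1 is a long noncoding RNA read from the opposite strand. Its 5′ end (9514998) lies within the LAMP5 record, a short way past the LAMP5 5′ end (9514590).

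With the combination, peaks around the LAMP5 5′ end covered nearly as many bases as with OTX015 alone, but those peaks stood less far over background. Within 10 kb of the 5′ end, peaks covered 11.9 kb with the combination and 12.1 kb with OTX015. This near-equality held with every peak kept and depended on the setting. With peaks within 1 kb of each other merged, combination minus OTX015 cover of this stretch was 2.24 kb. It was −2.48 kb with equal peak numbers, −3.24 kb at −log10 q of 2 or more and −12.1 kb at 5 or more. At a common enrichment it was −12.1 kb as well. The strongest peak of this stretch stood 6.40 times over background with the combination and 15.9 times with OTX015, a ratio of 0.402. Cover of the locus and strength of its peaks thus differed between the treatments by unlike amounts, and each is described in turn.

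Strength is given as enrichment over background, which is the mean number of fragments stacked on each base of a peak divided by the background that the peak caller used. The background was solved from the weakest peaks of each list at 1.47 fragments per base for the combination and 0.764 for OTX015, a ratio of 1.92. The weakest peak a list can hold therefore stood 4.76 times over background in the combination list and 6.54 times in the OTX015 list, so a ratio below 1 between 2 weak peaks follows from the lists alone. Over the whole lists the median enrichment was 5.08 and 6.90 times, and the median width 339 and 303 bp, for the combination and OTX015. On chromosome 20 the combination list held 2527 peaks over 1.02 Mb, against 1790 peaks over 0.780 Mb with OTX015. The labels give no spike-in, and a difference in the efficiency of the 2 immunoprecipitations cannot be told apart from a difference in acetylation.

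The sequences at the 2 start sites are shown because the peaks of the treatments part there. Each runs from 250 bases before to 50 bases after the RefSeq 5′ end (GRCh38.p14), 5′ to 3′ on the strand of its gene. Capitals mark the bases under combination peaks, while every base of both windows lay under 1 OTX015 peak.
LAMP5 promoter, chr20:9514340-9514639, plus strand: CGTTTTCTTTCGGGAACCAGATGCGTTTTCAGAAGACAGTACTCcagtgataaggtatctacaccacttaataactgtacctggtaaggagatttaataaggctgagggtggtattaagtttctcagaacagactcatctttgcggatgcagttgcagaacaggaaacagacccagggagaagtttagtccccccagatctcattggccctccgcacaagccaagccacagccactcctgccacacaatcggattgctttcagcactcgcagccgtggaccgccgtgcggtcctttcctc
LAMP5-AS1 promoter, chr20:9514949-9515248, minus strand: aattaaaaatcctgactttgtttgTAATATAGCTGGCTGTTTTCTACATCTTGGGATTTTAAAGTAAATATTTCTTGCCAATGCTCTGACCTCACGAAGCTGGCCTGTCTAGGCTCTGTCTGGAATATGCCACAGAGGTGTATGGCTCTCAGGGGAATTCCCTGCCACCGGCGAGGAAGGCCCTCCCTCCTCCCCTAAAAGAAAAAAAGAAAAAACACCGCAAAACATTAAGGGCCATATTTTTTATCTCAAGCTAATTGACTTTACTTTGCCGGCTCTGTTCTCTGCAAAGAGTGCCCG
Combination peaks reached 44 of the 300 bases at LAMP5, all at the upstream edge, and 276 of the 300 bases at LAMP5-AS1. The LAMP5 5′ end itself lay in a gap of 446 bases between 2 combination peaks (9514384 to 9514829), from 206 bases before it to 239 bases after it. With 1 kb either side of the 5′ end, combination peaks covered 0.953 kb and OTX015 peaks the whole 2.001 kb.

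The LAMP5 window had a GC content of 50.3% and the LAMP5-AS1 window 44%, against a median of 58.7% over the 35116 promoters of the same length. On both strands, the LAMP5 window held the letters CCAAT 1 time, the core of the ETS family GGAA 3 times and the MYB core AACNG 5 times. A single GGAA lay between a pair of AACNG matches and shared its outer bases with them. At least 1 AACNG occurred in 77.2% of all promoters, with a median of 1, and 98.7% held 5 or fewer. GGAA occurred in 95.5% of all promoters, with a median of 3, and CCAAT in 34.6%. The window held none of the GC box GGGCGG (45.0% of promoters), TATAAA (11.5%), the PU.1 letters GAGGAAG (13.6%), the RUNX letters TGTGGT (13.1%), the MEIS letters TGACAG (15.8%), the E-box CACGTG (7.26%) or the C/EBP letters TTGCNNCAA (1.98%). It held 11 CpG dinucleotides, against a median of 14. The LAMP5-AS1 window held GAGGAAG 1 time, overlapping 1 of its 4 GGAA matches, with CCAAT 1 time, AACNG 2 times and 6 CpG dinucleotides. These matches describe letters only.

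The peak that carried most of the OTX015 signal ran from 9504280 to 9516692, 12.4 kb wide, from 10.3 kb before to 2.102 kb after the LAMP5 5′ end. It spanned the whole LAMP5-AS1 record and the start of LAMP5, with a fold of 7.47, a −log10 p of 12.35 and a −log10 q of 8.34 as deposited. It was the widest OTX015 peak on chromosome 20 and ranked 18 by width and 32 by enrichment in its list. Of the 18 OTX015 peaks of at least its width, itself included, 4 were as enriched or more, and the 31 peaks of 10 kb or more had a median enrichment of 11.9 times.

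In the combination list the same stretch was broken into 5 peaks, which covered 9.81 kb (79.0%) of it. The longest, from 9504803 to 9513106, was 8.30 kb wide and lay over the body of LAMP5-AS1, ending 1.48 kb before the LAMP5 5′ end. It had a fold of 4.21, a −log10 p of 5.93, a −log10 q of 2.78 and an enrichment of 6.40 times, and ranked 73 by width but 1604 by enrichment in its list. A peak of 558 bp followed, 4.91 times over background, and ended 0.207 kb before the 5′ end. Past the 5′ end came a peak of 395 bp (9514830 to 9515224, 6.04 times) over the LAMP5-AS1 start, and one of 537 bp (9515813 to 9516349, 5.53 times). The remaining peak, of 107 bp, reached into the upstream edge of the stretch by 13 bases. The gaps, 5 in number and of 343 to 719 bases each, 2.61 kb in all, lay outside combination peaks.

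**Figure D1:**
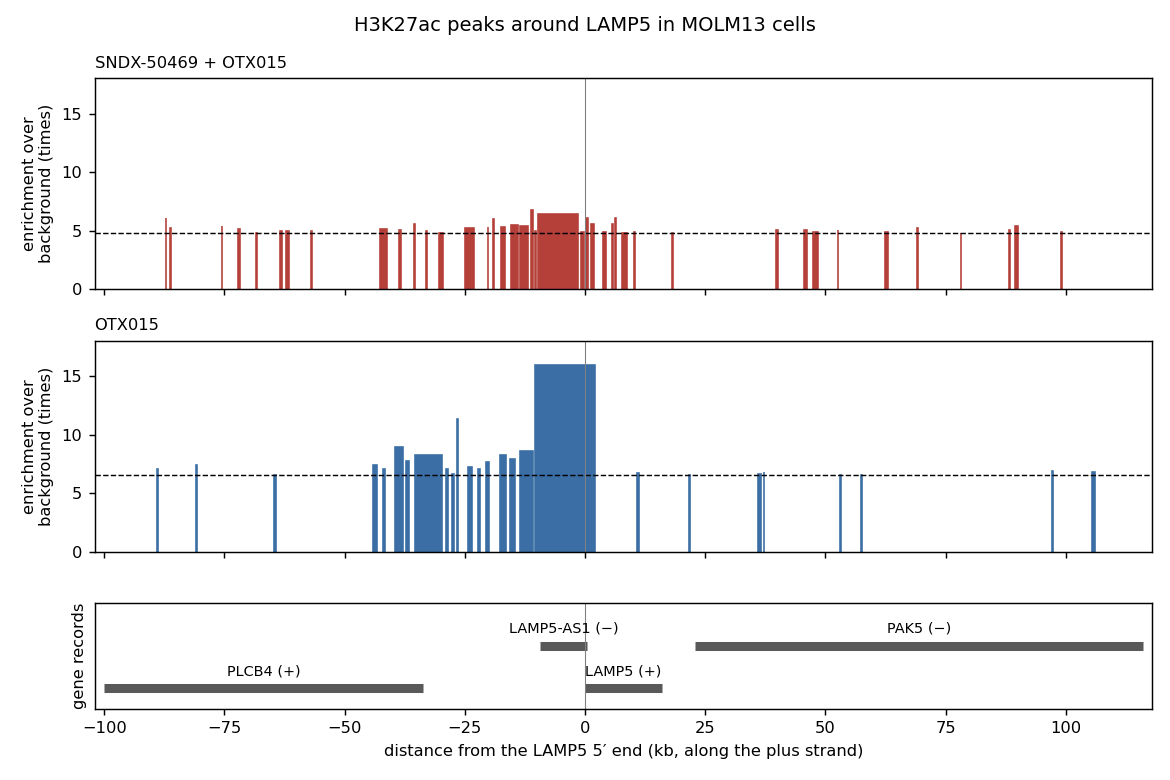
H3K27ac peaks by distance from the LAMP5 5′ end (x axis, kb) with the combination above and OTX015 below; each bar spans 1 peak (the narrowest are drawn slightly wider than their length) and its height is the enrichment over background, in times. Dashed lines mark the weakest enrichment each list holds, 4.76 and 6.54 times, and the highest bars reach 6.73 times with the combination and 15.9 times with OTX015.

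The OTX015 peak was also the higher one before division by the background. The mean pileup, recovered from the fold, was 9.41 fragments per base over the 8.30 kb combination peak and 12.2 over the 12.4 kb OTX015 peak, although the background was higher in the combination library. Averaged over the bases that combination peaks covered, their enrichment was 6.25 times, a ratio of 0.393 to the OTX015 peak. With the uncovered bases set to the lowest enrichment of the combination list, the mean was 5.94 times and the ratio 0.373. The fold is averaged over a whole peak, so the profile inside the OTX015 peak, a dip at the 5′ end included, was not measured here.

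Over LAMP5 with 100 kb either side, peaks covered 28.5 kb (13.2% of the window) with the combination and 32.8 kb (15.2%) with OTX015, a difference of 4.38 kb. Both lists covered 16.6 kb, which was 58.4% of the combination cover and 50.6% of the OTX015 cover. The mean enrichment over covered bases was 5.54 times with the combination and 10.9 times with OTX015. Cover weighted by enrichment, which joins the 2 measures, came to 158 kb-times with the combination and 359 with OTX015 (ratio 0.439). In the 10 Mb around LAMP5 the order of the cover was the other way round, with 284 kb for the combination and 166 kb for OTX015 (ratio 1.71), at mean enrichments of 5.32 and 8.11 times.

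The window's combination peaks were more numerous and less enriched, as were those of the whole list. They were 107 to 8304 bp wide (median 395 bp) and 4.76 to 6.73 times over background, with −log10 q of 1.32 to 2.97. The OTX015 peaks were 115 to 12413 bp wide (median 525 bp) and 6.54 to 15.9 times over background, with −log10 q of 1.102 to 8.34. Widths of 1 kb or more were reached by 7 combination peaks and 6 OTX015 peaks, and a −log10 q of 2 by 6 and 5. A −log10 q of 5 was reached by 0 combination peaks and 1 OTX015 peak. Over the whole lists a −log10 q of 2 was reached by 11097 of 86207 combination peaks and 4211 of 55852 OTX015 peaks. A value of 5 was reached by 69 and 129 of them. Widths of 1 kb or more were not counted over the whole lists.

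Because the lists reach down to different strengths, the cover was also taken above common limits. At an enrichment of 6 times or more it was 9.39 kb with the combination and 32.8 kb with OTX015, and at 7 times or more 0 and 29.7 kb. At a −log10 q of 2 or more it was 9.52 kb with the combination and 22.7 kb with OTX015, and at 3 or more 0 and 12.6 kb. Only 1 of the 41 combination peaks was as enriched as the weakest of the 26 OTX015 peaks. Over the whole combination list 1160 of 86207 peaks were, so the count says nothing particular of LAMP5. At 5 times or more the cover was 21.8 kb with the combination and 32.8 kb with OTX015, and at 5.5 times or more 10.4 and 32.8 kb. The covers were thus nearest with every peak kept, at 28.5 and 32.8 kb. They lay further apart at each common enrichment limit tried from 5 to 14 times. The OTX015 list holds no peak below 6.54 times, so limits of up to 6.5 times could remove combination peaks only. Few combination peaks of the whole list pass 6.54 times, so this loss of cover follows largely from the lists.

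**Figure D2:**
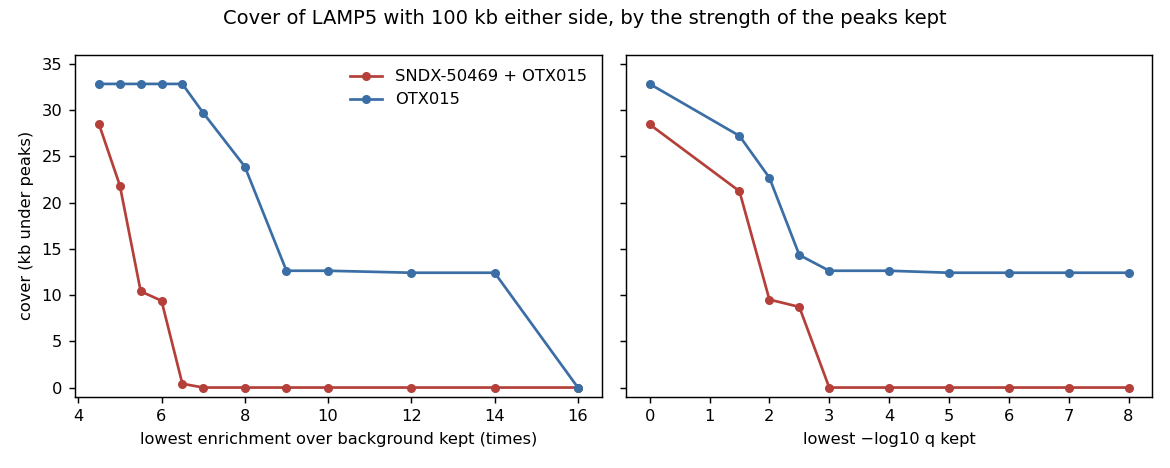
Cover of LAMP5 with 100 kb either side (y axis, kb) when only peaks at or above a given enrichment over background (left, times) or −log10 q (right) are kept; the left-most points keep every peak. Combination cover ends between 6.5 and 7 times and between −log10 q 2.5 and 3, where 29.7 kb and 12.6 kb of OTX015 cover remain.

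The peaks fell into 6 stretches, described here from upstream to downstream. The end of PLCB4, the neighbouring gene for a phospholipase C beta that acts downstream of G protein-coupled receptors, lies 33.8 kb before LAMP5 on the same strand. Within the window, 11 combination peaks of 4.76 to 6.12 times and 7 OTX015 peaks of 6.54 to 8.96 times lay mostly in its record. The record's cover was 4.51 kb with the combination and 6.04 kb with OTX015, which includes the start of a longer OTX015 peak that lies mostly past the end of PLCB4. The strongest combination peak there (9427387 to 9427499, 113 bp) was 1.67 kb away from the nearest OTX015 peak. The strongest OTX015 peak there (9474976 to 9476680, 1.71 kb, 8.96 times) was 26.3% covered by combination peaks.

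The 24.4 kb between PLCB4 and LAMP5-AS1 had the largest difference in cover of the 6 stretches, with 8.004 kb for the combination and 12.8 kb for OTX015. A combination peak met 6 of the 10 OTX015 peaks assigned there, and an OTX015 peak met 9 of the 10 combination peaks. An OTX015 peak of 5.69 kb (9479118 to 9484807, 8.23 times) that began within the last part of PLCB4 was 17.0% covered by 3 combination peaks. The second strongest OTX015 peak of the whole window stood here alone: 215 bp (9488041 to 9488255), 26.5 kb before the 5′ end, with a −log10 q of 4.20 and 11.3 times over background. The nearest combination peak was 1.42 kb away. Closer to LAMP5-AS1 the lists lay over each other. OTX015 peaks of 1.21 kb (8.23 times), 1.24 kb (7.94 times) and 2.67 kb (8.56 times) were 74.6%, 80.8% and 77.8% covered by combination peaks of 5.28 to 6.73 times. The last of these, 414 bp from 9503310 to 9503723, was the strongest combination peak of the window, with a fold of 4.41 and a −log10 q of 2.97.

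Over LAMP5-AS1 before the LAMP5 start, 8.49 kb was covered with the combination and 9.41 kb, the whole stretch, with OTX015. Over the LAMP5 record the order was reversed, with 3.26 kb for the combination and 2.48 kb for OTX015. This order held only with weak peaks included: among peaks of −log10 q of 2 or more, the combination cover minus the OTX015 cover was −1.55 kb. The combination list had 7 peaks assigned to the record, and 5 of them, at 3.72 to 10.3 kb past the 5′ end, met no OTX015 peak. These 5 were 161 to 1138 bp wide and 4.80 to 6.11 times over background, all below the weakest OTX015 peak. Apart from the long peak, OTX015 had 1 peak in the record, of 374 bp and 6.73 times, 10.9 kb past the 5′ end. Exon boundaries on GRCh38 were not used here, so the peaks were placed by distance only.

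Past LAMP5 the lists shared no base. The 6.85 kb before PAK5, which encodes a p21-activated kinase and is read towards LAMP5 from the minus strand, held 1 peak in each list. The PAK5 record within the window held 10 combination peaks of at most 5.40 times (4.08 kb) and 6 OTX015 peaks of at most 6.90 times (1.87 kb). The long noncoding records LOC105372523 and LOC101929348 lie in this stretch as well. In the whole window 16 of 41 combination peaks (39.0%, exact Clopper-Pearson 95% interval 24.2% to 55.5%) and 9 of 26 OTX015 peaks (34.6%, 17.2% to 55.7%) met a peak of the other list. The intervals cover counting over peaks only and treat each peak as independent. They are too narrow, because 5 combination peaks met 1 same OTX015 peak and 3 others met another. Over the whole lists, 21.0% of combination peaks and 33.3% of OTX015 peaks did so, and the OTX015 share near LAMP5 was thus close to that of its list. Combination peaks that were met had a median width of 548 bp, against 234 bp for those that were not, and OTX015 peaks 1236 bp against 266 bp.

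To see how usual this is, LAMP5 was placed among the 19671 protein-coding genes with a known strand. By cover within 10 kb of the 5′ end it ranked 64 with the combination and 15 with OTX015, and first on chromosome 20 in both. By its strongest peak, over the record with 10 kb either side, it ranked 945 with the combination and 18 with OTX015, and 24 and 1 of 531 on chromosome 20. Cover of the record with 10 kb either side was 12.2 kb with the combination and 12.7 kb with OTX015, within 1.5-fold. Of the 12953 genes covered in either list, 31.7% had cover lower by 1.5-fold or more with the combination and 48.6% had cover higher by that much, so LAMP5 belonged to neither. Cover by peaks of −log10 q of 5 or more was present at 0.425% of these genes with the combination and at 1.03% with OTX015, and LAMP5 had it with OTX015 alone.

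The ratio of the strongest peaks was lower by 1.5-fold or more at 27.6% of the 7659 genes with cover in both lists, LAMP5 included. The median ratio was 0.720, and 9 genes (0.118%) had a ratio below the 0.402 of LAMP5. Of the 2545 genes whose cover differed by less than 1.5-fold, as that of LAMP5 did, 812 (31.9%) had a strongest peak lower by 1.5-fold or more and 51 by 2-fold or more. Strong OTX015 peaks in general were met by weaker ones. Of the 129 OTX015 peaks with −log10 q of 5 or more, 123 met a combination peak, and the median ratio of the combination peak to the OTX015 peak was 0.536 (quartiles 0.461 and 0.628). The LAMP5 peak had a lower ratio than most of them, with 10 of 123 (8.13%) lower still. Peaks picked for their strength in the combination list gave a median OTX015 ratio of 1.38 over the 67 of 69 that met an OTX015 peak.

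The genes whose 4 values of cover and strength were most like those of LAMP5, by Euclidean distance on the log2 scale over 7651 genes, were DACH1, CELF2, ANKRD13D, FMNL1 and ZFP36. DACH1, a transcription cofactor gene on chromosome 13, was the closest (distance 0.251), with 10.7 kb and 6.20 times for the combination and 11.2 kb and 15.5 times for OTX015. CELF2, an RNA-binding protein gene on chromosome 10, followed at 0.376, with 13.5 kb and 6.33 times for the combination and 13.9 kb and 12.6 times for OTX015. The other 3 lay at 0.393 to 0.413.

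For comparison, 12 genes were taken as MLL fusion targets, LAMP5 among them, a set picked here from genes the study discusses and from earlier results. Cover of the record with 10 kb either side was lower with the combination at 9 of the 12 and higher at FLT3, MYB and BCL2, and summed to 68.6 kb with the combination and 127 kb with OTX015. Of all 12953 covered genes, 40.7% had lower cover and 59.3% higher cover with the combination, differences of any size included. The highest enrichment was lower at each of the 11 targets with peaks in both lists, as it was at 99.8% of the 7659 such genes, so that count says nothing particular of the targets. MEIS1, the HOX cofactor gene, had no combination peak and 9.34 kb of OTX015 cover. LAMP5 had the smallest difference in cover of the 12 (0.447 kb) and the second lowest ratio of strongest peaks among the 11 with peaks in both lists, after SENP6 at 0.315. At SENP6, which encodes a SUMO protease, cover differed as well, with 6.22 kb for the combination and 20.0 kb for OTX015. At JMJD1C, a histone demethylase family gene, it was 0.240 kb and 15.5 kb, with a ratio of strongest peaks of 0.426. MYB, a transcription factor gene of blood progenitors, was nearest to LAMP5 in the ratio of its cover, with 14.2 kb for the combination and 12.47 kb for OTX015, while its strongest peak stood at 6.60 and 12.4 times (ratio 0.532). The receptor kinase gene FLT3 had the highest ratio of the 11, 0.840. Peaks of −log10 q of 5 or more were present at 0 of the 12 genes with the combination and at 5 with OTX015, LAMP5 among them. Of all 12953 covered genes, 0.425% had them with the combination and 1.03% with OTX015, so the count of 0 is near the share of all genes. The 5 of 12 with OTX015 were a larger share than that of all genes, in a set chosen with earlier results known.

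**Figure D3:**
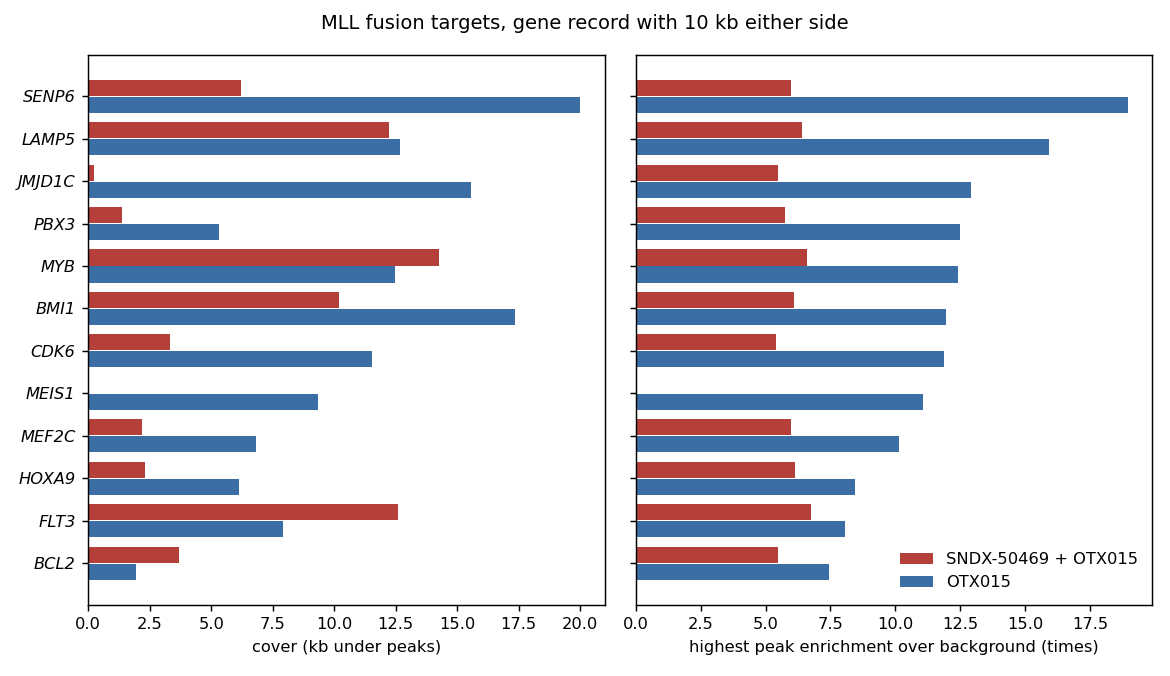
Cover (left, kb) and highest peak enrichment over background (right, times) of 12 MLL fusion targets, record with 10 kb either side, with the combination bar above the OTX015 bar; genes are ordered by the OTX015 enrichment. The LAMP5 bars are nearly equal in cover, 12.2 and 12.7 kb, and unequal in enrichment, 6.40 and 15.9 times.

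Other members of the LAMP family gave no common picture. Values are for each gene record with 10 kb either side, where peaks of neighbouring genes can also lie. CD68, the macrophage lysosomal protein gene on chromosome 17, was like LAMP5 in strength but not in cover, with 2.38 kb and 6.48 times for the combination and 4.67 kb and 15.2 times for OTX015 (ratio 0.425). LAMP1, the abundant lysosomal membrane protein gene, had 1.16 kb with the combination and 0.314 kb with OTX015, and LAMP3, the gene of dendritic cell LAMP, 0.459 and 0.156 kb. LAMP2 had no peak in either list. Of 10 genes of the endosomal Toll-like receptor route, 4 had a peak. Of all 19671 genes with a known strand, 12953 were covered in either list and 10589 with the combination. TLR9, the endosomal DNA sensor, had 4.36 kb with the combination and 2.81 kb with OTX015. UNC93B1, the chaperone of these receptors, IRF7 and TRAF6 had no combination peak and 0.912, 0.493 and 0.123 kb with OTX015.

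The labelled cell type was checked with marker genes. All 10 myeloid markers were covered in at least 1 list, with 71.8 kb in sum for the combination and 53.6 kb for OTX015. Of all 19671 genes with a known strand, 12953 were covered. The other lists had 5 of 8 (plasmacytoid dendritic), 4 of 5 (B cell), 3 of 5 (T cell) and 5 of 6 (neuron). Being covered thus separated the lists only in part. Their cover was higher with the combination at 9 of 10, against the 59.3% of all covered genes. CEBPA, CD33, ELANE, PRTN3 and AZU1 all lie on the peak-dense chromosome 19. ELANE, PRTN3 and AZU1 are neighbours there, so their windows may share peaks. The sums and counts of the 10 markers are therefore not those of 10 separate genes. The strongest peak was lower with the combination at each of the 9 with peaks in both lists, with ratios from 0.655 at AZU1 to 0.996 at MPO, both granule protein genes, against the 0.402 of LAMP5. Peaks of −log10 q of 5 or more were present at 4 of the 10 with the combination and at 2 with OTX015, against 0.425% and 1.03% of all covered genes. Of 8 plasmacytoid dendritic cell markers, IL3RA, CLEC4C and GZMB had no peak in either list, and the list summed to 6.64 kb with the combination and 7.44 kb with OTX015. The B cell markers summed to 7.51 and 4.20 kb, the T cell markers to 1.58 and 0.861 kb and the neuron markers to 4.88 and 3.35 kb, for the combination and OTX015.

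Stitching nearby peaks into domains, at the distance usual in rankings of super-enhancers, placed LAMP5 in 1 domain in each list. Peaks wholly within 2.5 kb of a protein-coding 5′ end were left out and domains were scored by length times fold. At LAMP5 this left out the combination peaks of 558, 395 and 537 bp. The 12.4 kb OTX015 peak over the same 5′ end was kept whole, so bases near that end counted towards the OTX015 score only. The combination domain ran from 9471867 to 9532787, 60.9 kb with 20 peaks, and the OTX015 domain from 9470575 to 9536489, 65.9 kb with 17 peaks. The widths differed by little and the scores by more, 78.2 with the combination and 165 with OTX015. The combination domain ranked 189 of 18586, just inside the 198 domains past the tangent point of its curve, and the OTX015 domain 41 of 18972, with 246 past the tangent point. On chromosome 20 the ranks were 6 and 1. Without the domains of chromosome 8 the ranks were 70 and 6. With peaks near 5′ ends kept, the ranks were 188 with the combination and 43 with OTX015, both past the tangent point. Stitched within 25 kb, the combination domain ranked 108 and was no longer past the tangent point, which 85 domains were, while the OTX015 domain ranked 52 with 127 past it. The score was computed from peak calls, not from reads, and neither domain is a measured super-enhancer.

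**Figure D4:**
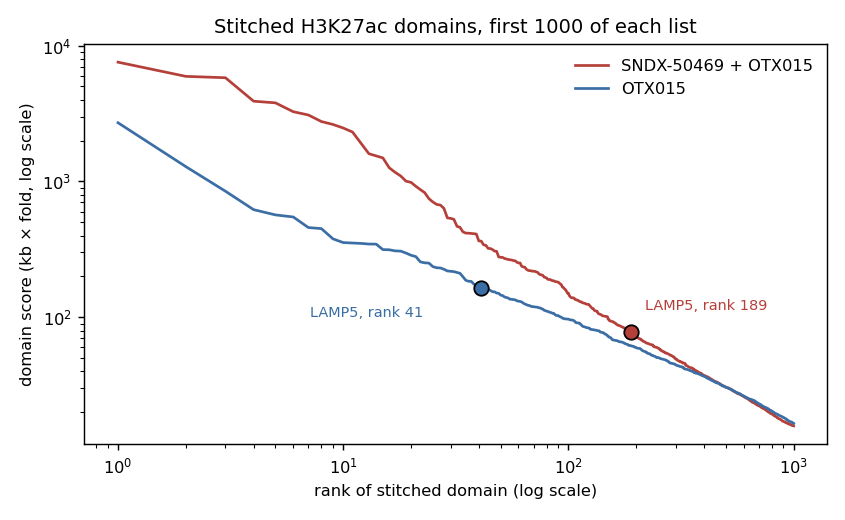
Score of stitched domains (y axis, kb times fold, log scale) by rank (x axis, log scale) for the first 1000 domains of the combination and OTX015 lists; circles mark the domain over LAMP5. The LAMP5 domain scored 78.2 at rank 189 with the combination and 165 at rank 41 with OTX015.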

How the data were processed

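H3K27ac ChIP-seq of MOLM13 cells was analysed from 2 peak lists, 1 per treatment; the input library of each treatment had no processed file used here. Per the submitters' processing notes, the authors used bcl2fastq 2.17, Trimmomatic 0.33, Bowtie 1.1.2 and MACS2 2.1.0 with GRCh38. The deposited lists hold, for each broad peak, a score, the −log10 of its p and q and a fold enrichment (a ratio of pileup to background), all averaged over the peak by the caller. They hold no read numbers, so depth is unknown and was inferred: the background was solved from the weakest peaks, under a Poisson model with a pseudocount of 1, as pileups of 7 (combination) and 5 (OTX015) fragments. It matched the −log10 p within 0.1 for 99.2% of combination peaks and 98.8% of OTX015 peaks, and for 40 of 41 and 24 of 26 near LAMP5, so the lists behave as called against a constant background. Copy number and input were then not corrected locally. Enrichment is the pileup so recovered over that background.

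Cover is the union of peaks, overlap needed 1 bp, and stitching used 12.5 kb. Gene positions and promoters came from RefSeq (GRCh38.p14); of 20033 protein-coding genes 15842 took their strand from the promoter table and 3829 from GENCODE by symbol and chromosome. Named genes were LAMP5, its neighbours, the fusion target, LAMP family, Toll-like receptor and marker lists, and the 5 genes most like LAMP5. The gene, its window and all lists were chosen with earlier results of these data known. With 1 library per treatment no test was run. Alternatives were stricter or common peak limits, equal peak numbers, merged peaks, other flanks, strength measures and stitching. Python 3.11.15, numpy 2.4.6, pandas 2.3.3 and scipy 1.17.1 were used, and scripts were tested on simulated data.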

Additional observations from a re-analysis of the deposited data

How the results depend on the processing

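Of 53 alternatives to 11 results, 21 moved the value by less than 1.5-fold in the same direction (for the share of peaks met, within its counting interval), 23 moved it further and 9 turned the direction. The ratio of the strongest peaks kept its direction under every measure tried. The deposited fold, p and q describe the same peaks, so these are not separate checks. The strongest peak was also lower with the combination at 99.8% of the 7659 genes with cover in both lists. The direction alone therefore says nothing particular of LAMP5. Differences in cover are combination minus OTX015, in kb. With 100 kb flanks (−4.38) the value was −13.2 at −log10 q of at least 2, −12.4 at 5, −10.1 with equal peak numbers, −32.4 at a common enrichment, −2.41 with peaks merged within 1 kb and −6.59 with 50 kb flanks. With 10 kb flanks (−0.447) it was −3.24, −12.1, −3.06 and −12.7 under the first 4, and 1.96, reversed, when merged. Around the 5′ end (−0.168) it was −3.24, −12.1, −2.48 and −12.1, and 2.24, reversed, when merged. Over the gene record (0.782) it reversed to −1.55, −2.10, −1.15 and −2.48, and was 2.05 when merged. Enrichment-weighted cover (ratio 0.439) gave 0.213, 0 at 5 and 0.00776 at the common enrichment. The ratio of peak numbers (1.58) reversed to 0 at 5 and 0.0385 at the common enrichment. Fusion targets covered less (9) were 5 at −log10 q of at least 5. The share of OTX015 peaks met (34.6%) was 57.7% with gaps of up to 1 kb allowed. The ratio of domain ranks (4.61) was 16.2 at 5 kb stitching, 2.08 at 25 kb and 7.33 with 5 other peak-dense chromosomes left out, and the ratio of domain widths (0.924) reversed to 1.54 at 25 kb, where the combination domain ranked 108 with 85 past the tangent point. The stricter limits keep fewer peaks by construction, and for the other changes the cause was not tested. No paired analysis was possible because each treatment had 1 ChIP library. The limits are the single library per treatment, the inferred depth, the unlike weakest enrichments of the lists, and the missing profile inside each peak.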
